A study of Homo sapiens with 18 samples.

Results

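The enrichment of RNAs with Flag-SBP2 in selenite-treated cells, beyond what anti-Flag beads recovered without SBP2, was measured by RNA immunoprecipitation sequencing (RIP-seq). In RIP-seq, RNA bound to a tagged protein is recovered on antibody beads and sequenced beside the RNA of the same lysate, the input. The measure was a difference of differences on the log2 scale, in which the RIP-to-input change of control lysates was subtracted from that of SBP2 lysates with selenite. It drew on 12 of the 18 libraries of the series, with 4 groups of 3 biological replicates each: control input, control RIP, SBP2 input with selenite and SBP2 RIP with selenite.

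All cells were HEK293T, a human embryonic kidney line that is easily transfected, although the growth protocol names HEK293. Control cells were transiently transfected with a plasmid for the Flag tag alone. The other cells received Flag-SBP2 by the same route and 100 nM sodium selenite 4 h later, and all lysates were taken 48 h after transfection. The tagged SBP2 thus came from a transfected plasmid, and selenite was given only together with it, so in this comparison SBP2 and selenite cannot be told apart. The 3 SBP2 lysates without selenite, which make up the rest of the series, served for reference.

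SBP2 is the protein that binds the SECIS element, a stem-loop in the 3′ untranslated region of selenoprotein mRNAs. Bound there, it recruits the elongation factor that carries the selenocysteine tRNA, so that the ribosome reads a UGA codon as selenocysteine and does not stop. Selenoproteins include glutathione peroxidases, thioredoxin reductases and deiodinases, and selenite is a common source of selenium for cultured cells. The series title gives the search for functional SECIS elements as the purpose of the sequencing.

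The deposited counts named RNAs by Ensembl gene ID only, and 0 of the 59792 genes in the reference table carried such an ID. IDs are therefore given as deposited, without gene names, functions or positions, and no more than 2 of them per direction are named. For the same reason the transfected gene, the selenoprotein genes and markers of the cell line were not analysed by name here. No SECIS or other sequence could be tied to an ID.

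The 12 libraries held 15.2 to 29.9 M counts (M, counts divided by 1e+06). Unless said otherwise, SBP2 lysates and SBP2 beads below are those with selenite. Of 58676 IDs in the table, 35033 had at least 1 count in the 18 libraries and 17678 passed the low-count filter and were tested. The other 17355 IDs with counts were too rare to test. Counts give each RNA as a share of its library, so a lower share in RIP does not measure how much of that RNA the beads recovered in absolute terms.

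ENSG00000198832 had the highest enrichment of all tested IDs. Its level was 58.2, 54.5 and 61.3 CPM (counts per 1e+06, scaled between libraries by TMM) in the 3 control inputs and 5.69, 5.41 and 5.68 CPM in the control RIP libraries. With SBP2 and selenite it was 49.3, 47.1 and 57.6 CPM in input and 325, 316 and 354 CPM in RIP. This RNA was depleted on control beads and concentrated on SBP2 beads, and no library of one RIP group came near those of the other. Its log2 RIP-to-input ratios were -3.33, -3.31 and -3.41 in the control lysates and 2.72, 2.74 and 2.62 in the SBP2 lysates with selenite. The enrichment was 6.06 on the log2 scale (SE 0.143, 66.9-fold, 95% interval 54.5 to 82.0, edgeR adjusted p = 4.78e-20).

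ENSG00000167468 came second, at a log2 enrichment of 5.66 (SE 0.139, 50.6-fold, 95% interval 41.5 to 61.7, edgeR adjusted p = 5.9e-20). It lay at 837, 806 and 881 CPM in control input and at 157, 157 and 143 CPM in control RIP. In SBP2 lysates it lay at 605, 609 and 737 CPM in input and at 5670, 5600 and 6660 CPM in RIP. The ratios of single lysates were -2.41, -2.36 and -2.62 in the control and 3.23, 3.20 and 3.17 with SBP2 and selenite. Among all IDs of a library, its raw count ranked between 1290 and 1435 in control RIP and between 1 and 3 in SBP2 RIP with selenite. It alone supplied 0.579%, 0.579% and 0.671% of the counts of those 3 libraries, against 0.0168%, 0.017% and 0.0158% in control RIP.

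Both enrichments lay mainly in the RIP libraries. RIP against RIP, without inputs, ENSG00000198832 was higher by 5.89 (SE 0.113) and ENSG00000167468 by 5.29 (SE 0.11) on the log2 scale (edgeR adjusted p = 2.39e-22 and 6.09e-22). Between the inputs ENSG00000198832 differed by -0.18 (SE 0.0924, edgeR adjusted p = 0.392). ENSG00000167468 was lower in the input with SBP2 and selenite, by -0.37 (SE 0.0917, edgeR adjusted p = 0.0327), which adds that amount to its enrichment.

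**Figure D1:**
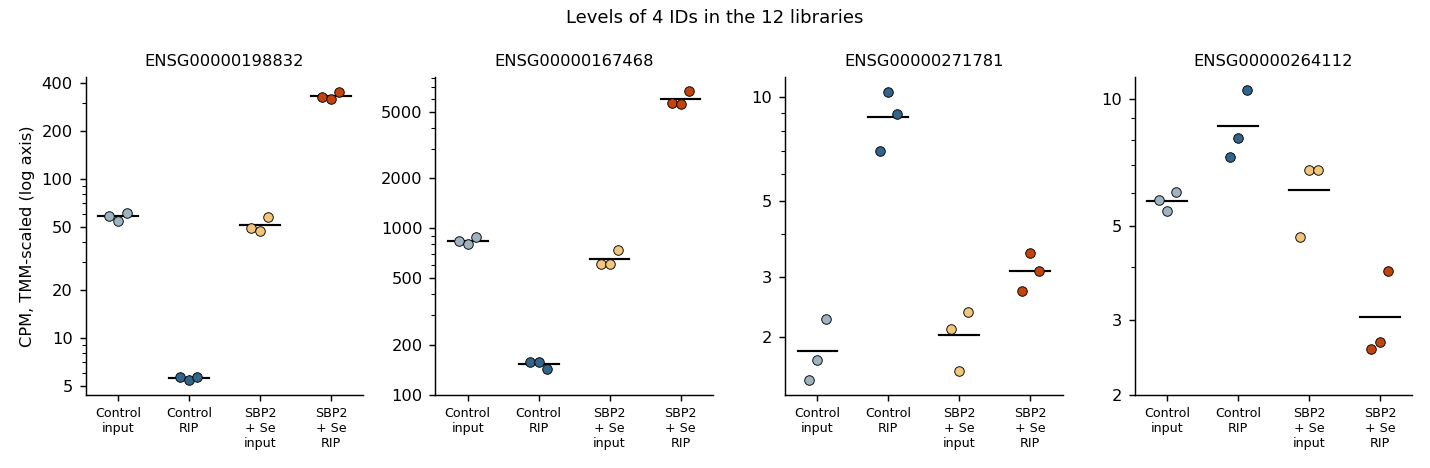
TMM-scaled CPM (log axes, a different range in each panel) of the 4 IDs described in the text, in control input, control RIP, SBP2 input with selenite and SBP2 RIP with selenite. Points are the 3 libraries of a group and bars their means. For the first 2 IDs, control RIP lies below input and SBP2 RIP above it. For the other 2, control RIP is the highest of the 4 groups.

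For depleted RNAs, the share of RIP relative to input was lower with SBP2 and selenite than on control beads. ENSG00000271781 had the strongest depletion among the more abundant IDs, taken as those whose log2 CPM averaged at least 1 over the 12 libraries. It measured 1.5, 1.72 and 2.26 CPM in control input and 6.97, 10.4 and 8.93 CPM in control RIP. In SBP2 lysates it measured 2.12, 1.6 and 2.37 CPM in input and 2.73, 3.51 and 3.12 CPM in RIP. It was thus concentrated on control beads, at ratios of 2.15, 2.54 and 1.94, and much less so with SBP2 and selenite, at 0.36, 1.09 and 0.38. Its log2 enrichment was -1.62 (SE 0.296, 3.08-fold lower, edgeR adjusted p = 0.000118).

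ENSG00000264112 followed at -1.61 (SE 0.272, 3.04-fold lower, edgeR adjusted p = 4.84e-05). It lay at 5.78, 5.44 and 6.02 CPM in control input and at 7.3, 8.11 and 10.5 CPM in control RIP. In SBP2 lysates it lay at 4.73, 6.78 and 6.79 CPM in input and at 2.56, 2.66 and 3.92 CPM in RIP. Its ratios changed sides, from 0.33, 0.57 and 0.79 in the control to -0.86, -1.32 and -0.78 with SBP2 and selenite. Both depleted IDs rest on few reads. ENSG00000271781 had 21 to 45 counts per input library, and ENSG00000264112 had 61 to 79 per SBP2 RIP library with selenite. The input of ENSG00000271781 differed by 0.14 on the log2 scale (SE 0.238, edgeR adjusted p = 0.867). For ENSG00000264112 the input difference was 0.08 (SE 0.194, edgeR adjusted p = 0.905).

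Over all tested IDs, 3416 were enriched and 2540 depleted at an edgeR adjusted p under 0.05, which is 19.3% and 14.4% of 17678 (33.7% in either direction). The median over all tested IDs was 0.03 on the log2 scale, with the middle 50% between -0.35 and 0.47. The enriched IDs had a median of 0.85 and the depleted IDs a median of -0.64. The balance between the directions depended on how libraries were scaled. Of the IDs called, 57.4% were enriched with TMM factors, 50.1% with upper-quartile factors (3036 enriched, 3024 depleted), 45.0% with DESeq2 size factors (2784 and 3397) and 42.7% with library size alone (2670 and 3582). Under all 4 scalings 2663 IDs were called enriched and 2540 depleted, and 0 were called in opposite directions by any of them. A change of scaling moved the IDs together, with medians of 0.03, -0.04, -0.08 and -0.10 in the order above. This agreement was therefore largely set in advance and is no separate support.

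At each log2 limit from 1 to 5, enriched IDs outnumbered depleted IDs under each of these scalings. At log2 limits of 1, 2, 3, 4 and 5, 1367, 324, 61, 14 and 5 IDs were enriched, against 294, 25, 3, 0 and 0 depleted. These are 7.73%, 1.83%, 0.345%, 0.0792% and 0.0283% of the tested IDs on the enriched side, and 1.66%, 0.141% and 0.017% at the first 3 limits on the depleted side. With library size alone, the scaling least favourable to enrichment, the counts at limits of 1, 2 and 3 were 1082, 262 and 50 enriched against 577, 39 and 4 depleted. Among the 13174 more abundant IDs, 217 were enriched and 0 depleted at a limit of 2, and 47 were enriched and 0 depleted at a limit of 3. All 25 IDs depleted at a limit of 2 belonged to the 4504 rarer IDs.

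Below the first 2 IDs the values declined gradually. Among the more abundant IDs, ranks 3 to 10 ran from 5.14 to 4.42 on the log2 scale, ranks 11 to 20 from 4.12 to 3.63 and ranks 31 to 50 from 3.23 to 2.98. On the depleted side, ranks 3 to 10 ran only from -1.59 to -1.42 and ranks 31 to 50 from -1.27 to -1.21.

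**Figure D2:**
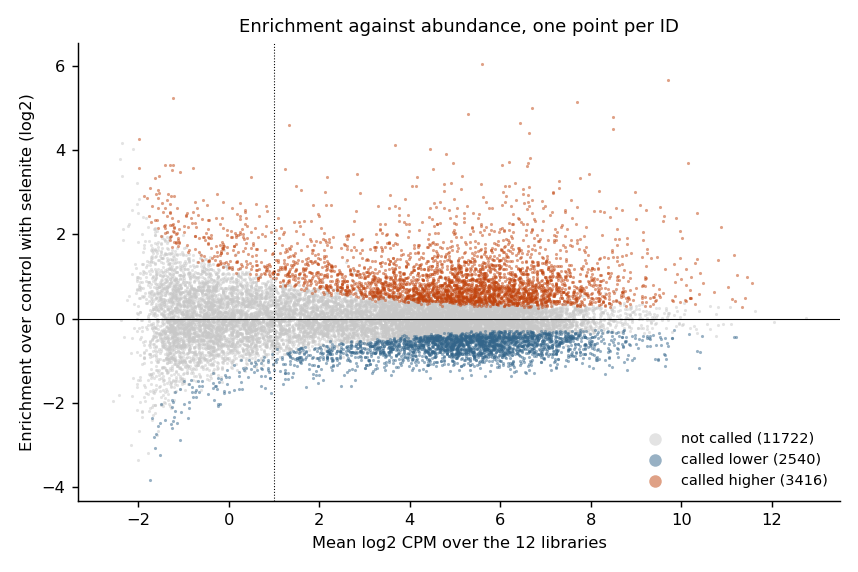
Log2 enrichment over control with selenite against the mean log2 CPM over the 12 libraries, 1 point per tested ID. Red points were called enriched (3416), blue points depleted (2540), and the dotted line marks a mean log2 CPM of 1. To the right of it, enrichments reach 6.06 and depletions -1.62.

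Calls were more frequent for abundant RNAs. IDs were divided into 5 equal bins by their level in the 3 SBP2 inputs without selenite, which take no part in the enrichment. From the lowest bin to the highest, 5.12%, 12.1%, 19.4%, 25% and 35.1% of IDs were enriched, and 2.46%, 9.19%, 20.1%, 23.1% and 17% were depleted. The precision changed along with abundance, since the median SE of the enrichment fell from 0.621 in the lowest bin to 0.13 in the highest. In the highest bin the enriched IDs outnumbered the depleted under each of 3 scalings examined there, with 29.1% against 23.1% with DESeq2 size factors and 28.2% against 24.3% with library size alone. The median enrichment there was 0.15, while the other bins had medians between -0.03 and 0.03. At 2-fold or more, 391 IDs were enriched and 22 depleted in the highest bin, against 180 and 82 in the lowest.

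**Figure D3:**
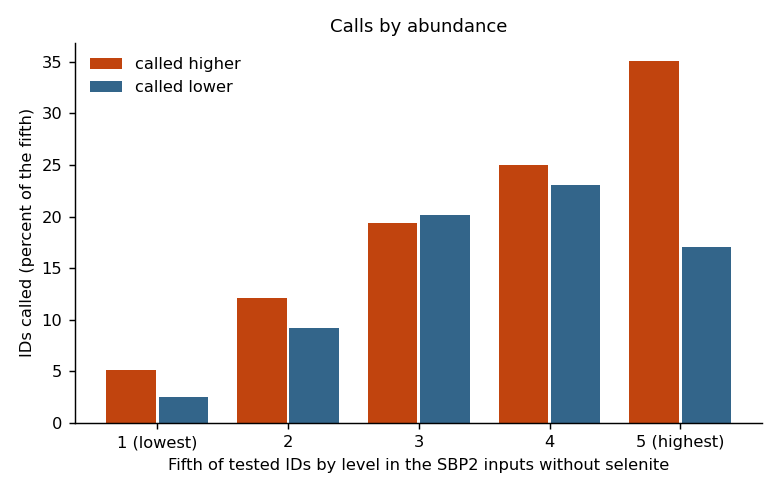
Percent of tested IDs called enriched (red) or depleted (blue) in each of 5 equal bins of abundance, by TMM-scaled edgeR. The enriched share goes from 5.12% to 35.1% from bin 1 to bin 5. The depleted share is highest in bin 4, at 23.1%.

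The enriched IDs mostly had a smaller share of control RIP than of control input. Of the 3416 enriched IDs, 2573 (75.3%) were lower in control RIP than in input, 532 did not pass there and 311 were higher (edgeR adjusted p under 0.05), while 39.8% of all tested IDs were lower. With SBP2 and selenite, 1437 of them (42.1%) were higher in RIP than in input, against 30.7% of all tested IDs. A further 819 (24.0%) did not pass and 1160 (34.0%) were lower, against 37.8% and 31.6% of all tested IDs. Both the higher and the lower count depended on the scaling, as did the number of IDs called enriched. Enriched IDs higher than input numbered 1271 of 3036 (upper-quartile factors), 1276 of 2784 (DESeq2 size factors) and 1296 of 2670 (library size alone). Those lower than input numbered 1040 with upper-quartile factors, 855 with DESeq2 size factors and 765 with library size alone. Since the enrichment is built from these 2 changes, their counts describe it and are no separate support.

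These positions fell into 4 main patterns. The first held 1160 IDs below input on both kinds of beads, with median log2 changes of -1.68 on control beads and -0.83 on SBP2 beads. In the second, 799 IDs went from below input, at a median of -0.91, to a change that did not pass. Another 614 IDs crossed over, from a median of -0.69 below input in control to 0.65 above it. The last, 512 IDs, had control changes that did not pass and rose above input, to a median of 0.85. The median enrichment was 0.68, 0.92, 1.45 and 0.86 in these patterns. The crossing pattern held 45 of the 61 IDs enriched at a log2 limit of 3, and 476 of the 1367 at a limit of 1.

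Depleted IDs mostly lay on the other side of input in control RIP. Of these 2540 IDs, 2271 (89.4%) were higher in control RIP than in input, against 31.5% of all tested IDs. With SBP2 and selenite, 1460 (57.5%) were still higher than input, at a median of 0.65 against 1.33 in the control. Over all tested IDs, 21.9% were above input on both kinds of beads. A further 764 (30.1%) went from above input to a change that did not pass, and 47 (1.85%) crossed from above to below. Over all tested IDs these shares were 9.36% and 0.266%. Under the other 3 scalings, 505 to 538 enriched IDs crossed upward and 77 to 83 depleted IDs crossed downward. The number of IDs called depleted changed with the scaling too. Depleted IDs above input with SBP2 and selenite numbered 1550 of 3024 with upper-quartile factors. They numbered 1824 of 3397 with DESeq2 size factors and 1995 of 3582 with library size alone. Those below input numbered 446, 479 and 487 in the same order, against 300 of 2540 with TMM.

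**Figure D4:**
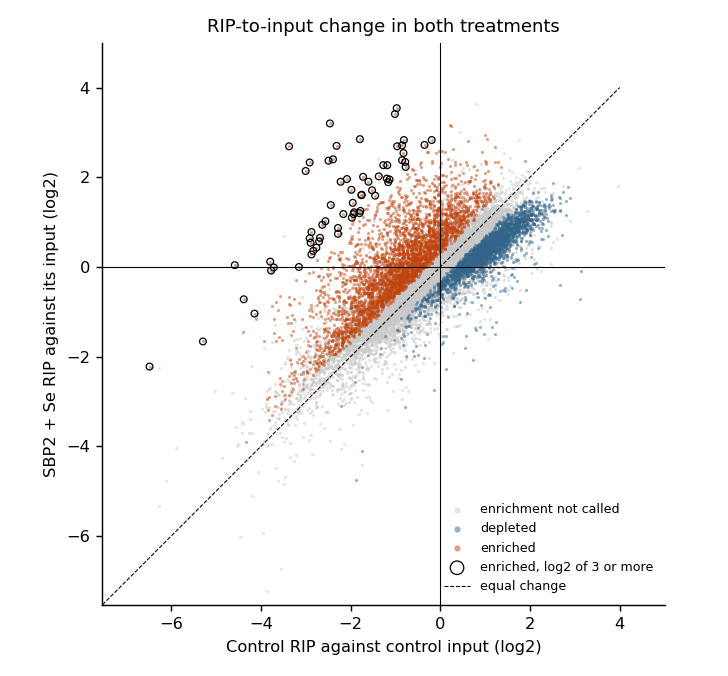
Log2 change from input to RIP in control lysates (x axis) and in SBP2 lysates with selenite (y axis), 1 point per tested ID, with red for enriched, blue for depleted and circles for the 61 IDs enriched at a log2 limit of 3. Points on the dashed line changed equally in both. Most circles lie in the upper left, below input in control and above it with SBP2 and selenite.

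Across all 17678 IDs, the mean RIP-to-input ratios of control lysates and of SBP2 lysates with selenite, which share no library, correlated at r = 0.772. The ratios spread more widely in control, with an SD over IDs of 1.07 and with 5% of IDs below -2.08, than with SBP2 and selenite (0.88 and -1.69). The ratios with SBP2 correlated at r = 0.937 between lysates with and without selenite. Single lysates of the same treatment correlated at 0.87 to 0.896 in control and at 0.81 to 0.857 with SBP2 and selenite. These values are descriptions across IDs, which are not independent replicates and share library depth.

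The enrichment lay mainly in the RIP libraries for nearly all IDs called. The RIP difference is a part of the enrichment, so the counts below describe the calls and are no separate support. RIP against RIP, 3245 of the 3416 enriched IDs (95%) were higher with SBP2 and selenite and 2398 of the 2540 depleted IDs (94.4%) were lower, beside 27.1% and 23.9% of all tested IDs. Between the inputs, 32 of the 3416 enriched IDs were higher and 58 lower. Of the 2540 depleted IDs, 32 were higher and 29 lower. Over all 17678 tested IDs, 144 (0.815%) were higher and 215 (1.22%) lower. The input difference was larger in size than the RIP difference for 143 enriched IDs (4.19%) and 135 depleted IDs (5.31%), beside 23.6% of all tested IDs. It was larger for 46 of the 294 IDs depleted at 2-fold or more (15.6%), whose median RIP difference was -1.02 and median input difference 0.16. For the 61 IDs at a log2 limit of 3 it was larger for 0, and all 61 were called higher RIP against RIP.

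The IDs were called on the difference between the same lysates, so the order of their single ratios describes the calls and is no separate support. In 3269 of the 3416 enriched IDs (95.7%) the 3 lysate ratios with SBP2 and selenite all lay above the 3 control ratios, and in 2309 of the 2540 depleted IDs (90.9%) all lay below. Over all tested IDs these orders occurred in 24.4% and 18.9%. The SD of the ratio between the 3 lysates had a median of 0.22 in both treatments. Of the 61 IDs at a log2 limit of 3, 60 had lysate ratios that did not overlap, and for 58 the gap between the groups was over 1.

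The 61 most enriched IDs took a larger part of the SBP2 RIP libraries than of the inputs. They held 0.744%, 0.662% and 0.66% of counts in control input and 0.182%, 0.192% and 0.175% in control RIP. In SBP2 lysates with selenite they held 0.683%, 0.657% and 0.664% in input and 2.57%, 2.55% and 2.82% in RIP. The inputs were alike, control RIP was the lowest group and SBP2 RIP the highest, with no overlap between the RIP groups. The 61 IDs were chosen for high enrichment in these same libraries, so this order describes the choice and is no separate support. Averaged over these IDs, the log2 ratio was -2.09, -1.78 and -1.94 in the 3 control lysates and 1.43, 1.37 and 1.49 with SBP2 and selenite. Their mean ratios ran from -1.65 to 3.55 with SBP2 and selenite, and 55 of 61 were above 0. Of these IDs, 11 had under 10 counts in the 3 control RIP libraries together, so their folds are poorly fixed.

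At 2-fold or more, the 1367 enriched IDs went from 12% ± 0.194 of counts in control input to 5.98% ± 0.0956 in control RIP. In SBP2 lysates with selenite they went from 11.6% ± 0.189 in input to 18% ± 0.717 in RIP (SD, n = 3). The 294 IDs depleted at 2-fold or more went from 0.774% ± 0.0618 to 2.83% ± 0.141 in the control, and from 0.798% ± 0.0448 to 1.21% ± 0.0597 with SBP2 and selenite (SD, n = 3). These IDs were chosen on the same libraries, so the shares describe them and carry no test.

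**Figure D5:**
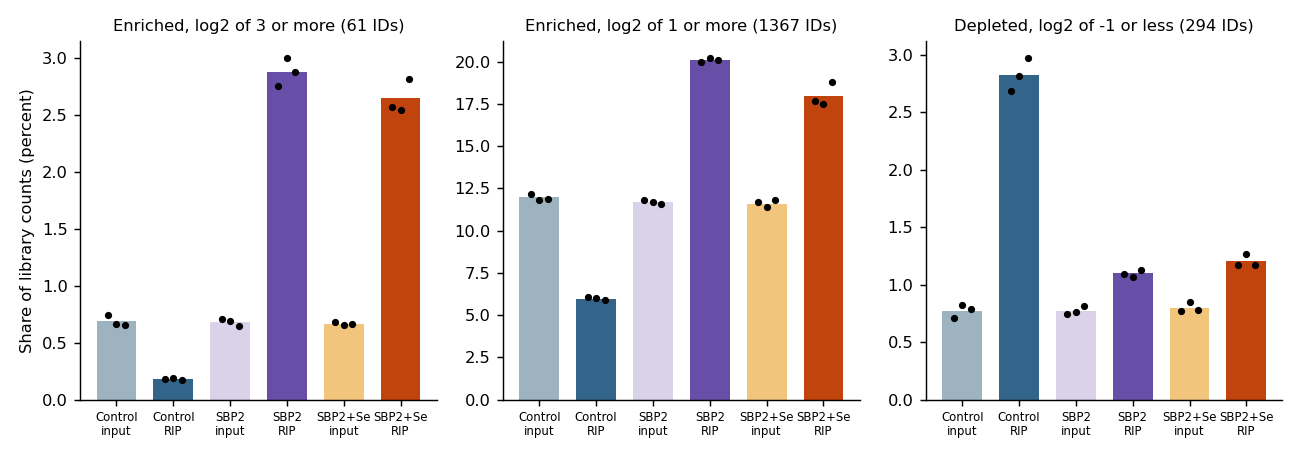
Percent of library counts held by the 61 IDs enriched at a log2 limit of 3, the 1367 enriched and the 294 depleted at 2-fold or more, in all 6 groups of the series. Bars are means and points the 3 libraries of each group. The SBP2 RIP libraries without selenite, which are outside the contrast but in the same fit, hold 2.88%, 20.1% and 1.1% on average.

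SBP2 lysates without selenite gave the RIP-to-input change in libraries outside the contrast that chose these IDs, although they shared its filter, scaling and estimate of the spread. Of the 1437 enriched IDs above input with selenite, 1380 were also above input in SBP2 RIP without it (edgeR adjusted p under 0.05). Over all tested IDs 30.3% were above input there, and 4746 of the 5422 above input with selenite were above it in both. In the other direction 31.6% of all tested IDs were below input with selenite and 31.7% without it. The 61 most enriched IDs held 2.76%, 3.00% and 2.88% of counts in SBP2 RIP without selenite, and 52 of them were above input. For the 4 IDs named, the enrichment over control without selenite was 6.29, 5.85, -1.66 and -1.37 on the log2 scale, in the order of their description, beside 6.06, 5.66, -1.62 and -1.61 with it. Both sets of values use the same control libraries.

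The difference made by selenite was tested directly between the SBP2 treatments, where the control libraries cancel. It was -0.22 for ENSG00000198832 (95% interval -0.49 to 0.04), -0.19 for ENSG00000167468 (-0.45 to 0.08), 0.04 for ENSG00000271781 (-0.56 to 0.64) and -0.24 for ENSG00000264112 (-0.83 to 0.35). All 4 had an edgeR adjusted p of 0.989 or 0.995. By edgeR 0 of 17678 IDs passed (0.0%), and 800 had an unadjusted p under 0.05. Of the 61 most enriched IDs, 49 had a lower ratio with selenite, at a median difference of -0.19, beside 50.7% of all tested IDs. This was not particular to the 61, since the ratio was lower for 72.6% of all 3416 enriched IDs. Among the 2540 depleted IDs it was lower for 36.1%. IDs are not independent replicates, so these shares carry no test. The typical 95% interval of the selenite difference reached 0.392 to each side on the log2 scale, without correction for the number of IDs tested. Passing the adjusted threshold required differences larger than that for most IDs, so smaller ones were not detectable.

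Without selenite, 21.7% of tested IDs were enriched over control and 18.1% depleted. Enrichment was called for 260 IDs with selenite only and for 688 without it only, and depletion for 266 and 927. For these 4 sets the direct test of the difference called 0 IDs, with 24, 70, 18 and 113 at an unadjusted edgeR p under 0.05. The 260 IDs had a median enrichment of 0.61 with selenite and 0.40 without, and 259 of them had the same sign in both. They are therefore not shown to differ between the treatments.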

How the data were processed

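RNA of 9 lysates was sequenced as input and as anti-Flag RIP. The deposited values are whole-number read counts per Ensembl gene ID, not normalized. Per the submitters' processing notes, Trim Galore 0.6.6, STAR 2.7.6a, featureCounts 2.0.1 and GRCh38 were used. The annotation used, and how strand and multimapping reads were handled, were not given in the sources used here, so IDs that share reads with a copy or an overlapping gene are uncertain.

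A group-means model over all 18 libraries was fitted with edgeR 4.0.16 (R 4.3.3; quasi-likelihood test, TMM, filterByExpr with a minimum count of 10 and a minimum total of 15), and the Benjamini-Hochberg threshold was 0.05 over all 17678 tested IDs. Lysate ratios were log2 CPM in RIP minus input with a prior count of 2. A simulation gave all treatments the control means of these libraries (17182 IDs tested). Only 200 IDs with a mean above 1 CPM were changed, all of them raised in SBP2 RIP with selenite. Of these, 84% of changes of log2 1 and 100% of changes of log2 2 were recovered, with 13 false calls. Recovery was not simulated for rarer IDs, for depletions or for changes in as many IDs as were called here.

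The members and lists were chosen with earlier results of these data known. The named IDs are the 2 with the largest change in each direction among those that passed, changed at least 2-fold, had lysate ratios that did not overlap and averaged at least 1 in log2 CPM. The rule allowed more, but without symbols no further IDs are named. The 23 gene lists, among them the selenoproteins and cell type markers, were not used, since no symbols could be matched. Input and RIP of 1 replicate number come from 1 lysate, per the labels' protocols. The main fit did not pair them, and counts with a block by lysate are given below. Input and RIP of 1 lysate deviated together weakly, at r = 0.1, 0.018 and 0.19 in control. With SBP2 and selenite the values were 0.12, 0.16 and 0.0012. Between treatments, same-numbered inputs deviated together (r = 0.31, 0.13 and 0.31), while same-numbered RIP libraries did so weakly (0.055, 0.044 and 0.05).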

Additional observations from a re-analysis of the deposited data

Results flagged for a closer look

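In some RNAs the RIP-to-input change passed in opposite directions in control and in SBP2 lysates with selenite, and the enrichment, which is the test of that difference, passed too. An upward crossing, from depleted on control beads to concentrated on SBP2 beads, was measured for 614 of the tested IDs (3.47%). The opposite crossing was measured for 47 (0.266%, edgeR adjusted p under 0.05). With DESeq2 size factors these counts were 505 and 83, with upper-quartile factors 538 and 77, and with library size alone 507 and 81.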

How the results depend on the processing

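The 4 named IDs kept their direction and passed in every setting run. Without the inputs, RIP against RIP, 4799 IDs were called higher and 4225 lower; that comparison subtracts no input. Beside the scalings given above, the balance turned toward depletion without the low-count filter (2475 enriched, 3670 depleted), where the cause was not tested. The DESeq2 test gave 2796 and 3460, close to the 2784 and 3397 of edgeR with DESeq2 size factors. With the replicate block by number the counts were 3813 and 2960, by lysate 3631 and 2753, and the block changed no call of a named ID. Leaving out 1 library gave 2942 to 3422 enriched and 2196 to 2639 depleted IDs. Leaving out 1 whole lysate, an alternative chosen after seeing the data, gave 2832 to 3168 and 2018 to 2492. Limma voom gave 3401 and 2568, the 12 libraries alone 2915 and 2471, a stricter filter 3185 and 2812, and thinning to 15.2 M counts 3073 and 2601. The median SE was 0.621 in the rarest bin and 0.13 in the most abundant. Tests planned by gene name (selenoproteins, gene lists) were not run.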
